A study of Rattus norvegicus with 60 samples.

Results

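The genes examined here encode the receptors through which serotonin, noradrenaline and adrenaline, and acetylcholine act on cells. They were taken as every probe set whose platform annotation gives 1 gene symbol beginning with Htr and a digit, Adra, Adrb and a digit, Chrm or Chrn, which found 56 probe sets for 43 genes, out of 31042 probe sets and 14217 genes named by a single symbol. Serotonin receptors made up 14 of the genes, adrenergic receptors 8, muscarinic receptors 5 and nicotinic receptors 16. For each gene the probe set with the highest mean over the 60 arrays gave the summary values. RNA was taken from the frontal cortex of male Long-Evans rats on postnatal days 62 to 64, 6 h after 1 oral gavage in corn oil, and each rat had an Affymetrix rat expression array of its own. The groups were corn oil vehicle (12 rats), deltamethrin at 0.3, 1 or 3 mg/kg (8 rats each) and permethrin at 1, 10 or 100 mg/kg (8 rats each). Deltamethrin is a single isomer that carries an alpha-cyano group, and permethrin is a mixture of cis and trans isomers that lacks it. The comparisons ask whether a pyrethroid dose, or the choice of pyrethroid, was accompanied by other mRNA levels of these receptors.

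Most of these receptors are coupled to G proteins. The alpha1 adrenergic receptors, the serotonin 2 receptors and the muscarinic M1, M3 and M5 receptors act through Gq and phospholipase C, which raises calcium in the cell. The alpha2 adrenergic receptors, the serotonin 1 and 5 receptors and the muscarinic M2 and M4 receptors act through Gi and lower cyclic AMP, while the beta adrenergic receptors and the serotonin 4, 6 and 7 receptors act through Gs and raise it. The nicotinic receptors and the serotonin 3 receptors are cation channels, and some nicotinic subunits, such as those of the muscle endplate (Chrna1, Chrnb1, Chrnd, Chrne, Chrng), are known mainly from other tissues. By this grouping 9 genes encode Gq receptors, 11 Gi receptors, 5 Gs receptors and 18 channel subunits.

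The labels name no batch, but the arrays fell into 3 sets by their values, and the 2 smaller sets were joined to give 2 array groups. The study's methods join arrays from a pair of cohorts exposed on separate days, and the labels do not tie an array to a cohort. Vehicle replicates 1 to 6 and replicates 1 to 3 of each dose formed a group of 24 arrays, and the other 36 arrays formed the second. These group sizes are the same as those of the cohorts in the methods, and the part of the cohort or of its day in the array groups was not tested. The first principal component held 58.0% of the variance, and along it 14 arrays of the 24-array group lay apart (vehicle 2, deltamethrin 0.3 mg/kg 1, permethrin 10 mg/kg 3, and 2 in each other dose). Vehicle thus has 6 of 12 rats in the 24-array group and each dose 3 of 8, and the array group was used as a block in an alternative fit. Of the receptor genes, 5 of 43 differed between the array groups by more than 0.5 on the log2 scale, against 8.14% of all probe sets. Array medians ran from 7.07 to 7.20. No detection calls were used here, and 14 of the 43 genes had a mean above the median of all probe set means, 7.17. In tissue, a lower value can mean fewer cells that express a gene or less RNA per cell, and these cannot be told apart.

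Adra2c, Chrm4 and Htr2c varied most between vehicle rats, and their promoters are shown because they are the members whose values depart most from the rest. The windows are the 300 bases around the RefSeq start of the gene on build GRCr8, written 5′ to 3′ on the gene's strand, with the GC box GGGCGG, searched on both strands with overlaps counted, in capitals. Adra2c lies at chr14:79697427-79697726 on the minus strand, Chrm4 at chr3:98348830-98349129 on the plus strand and Htr2c at chrX:115452940-115453239 on the plus strand.
Adra2c: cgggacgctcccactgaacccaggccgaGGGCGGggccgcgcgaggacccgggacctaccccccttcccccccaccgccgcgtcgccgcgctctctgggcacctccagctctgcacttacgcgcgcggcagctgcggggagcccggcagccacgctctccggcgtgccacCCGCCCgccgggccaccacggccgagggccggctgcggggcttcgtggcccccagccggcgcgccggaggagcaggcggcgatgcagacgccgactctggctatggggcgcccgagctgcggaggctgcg
Chrm4: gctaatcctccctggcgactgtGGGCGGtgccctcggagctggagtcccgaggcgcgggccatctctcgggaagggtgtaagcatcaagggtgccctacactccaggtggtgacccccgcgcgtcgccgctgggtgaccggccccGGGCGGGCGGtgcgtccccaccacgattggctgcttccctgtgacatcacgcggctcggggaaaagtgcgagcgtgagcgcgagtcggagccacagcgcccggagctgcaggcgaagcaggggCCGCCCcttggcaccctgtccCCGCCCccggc
Htr2c: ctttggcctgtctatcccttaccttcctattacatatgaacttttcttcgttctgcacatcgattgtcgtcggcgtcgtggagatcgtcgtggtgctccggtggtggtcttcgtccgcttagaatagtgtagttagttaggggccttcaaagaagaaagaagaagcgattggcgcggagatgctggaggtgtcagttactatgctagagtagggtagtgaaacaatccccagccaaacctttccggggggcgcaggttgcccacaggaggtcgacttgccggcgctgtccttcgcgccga
The Chrm4 window holds 5 GC boxes, the Adra2c window 2 and the Htr2c window 0, with G and C bases at 72.0%, 79.0% and 53.7%. RefSeq gave a window for 33 of the 43 genes, and 17 of the 33 hold a GC box, against 34.9% of 27457 promoters. The cyclic AMP response element TGACGTCA was in 0 of the 33, against 1.91% of all promoters, and its shorter form TGACG, searched on both strands and contained in the longer one, was in 7 of the 33, against 22.0%. These counts describe letters in these windows only.

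No receptor gene passed an adjusted p under 0.05 (limma, Benjamini-Hochberg over 31042 probe sets) at any dose of either compound, where the share of all probe sets called was 0% in each of the 6 comparisons with vehicle. At an unadjusted p under 0.05, 0 of the 43 genes passed at any dose, where the share of all probe sets passing was 0.751%, 2.24% and 1.36% at deltamethrin 0.3, 1 and 3 mg/kg and 1.18%, 3.48% and 1.24% at permethrin 1, 10 and 100 mg/kg. The median log2 difference over the 43 genes was -0.02, -0.03 and -0.03 at the rising deltamethrin doses and 0.02, -0.002 and -0.01 at the rising permethrin doses. The same median over all probe sets lay between -0.009 and 0.005. Medians this near to 0 had no settled sign: with array medians centred that of permethrin 10 mg/kg was 0.03, and with the replicate number as a block all 6 were above 0. The largest mean differences in either direction were 0.26 for Adra1d at deltamethrin 3 mg/kg and -0.22 for Chrm1 at permethrin 100 mg/kg. The 6 comparisons share the same 12 vehicle rats.

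**Figure D1:**
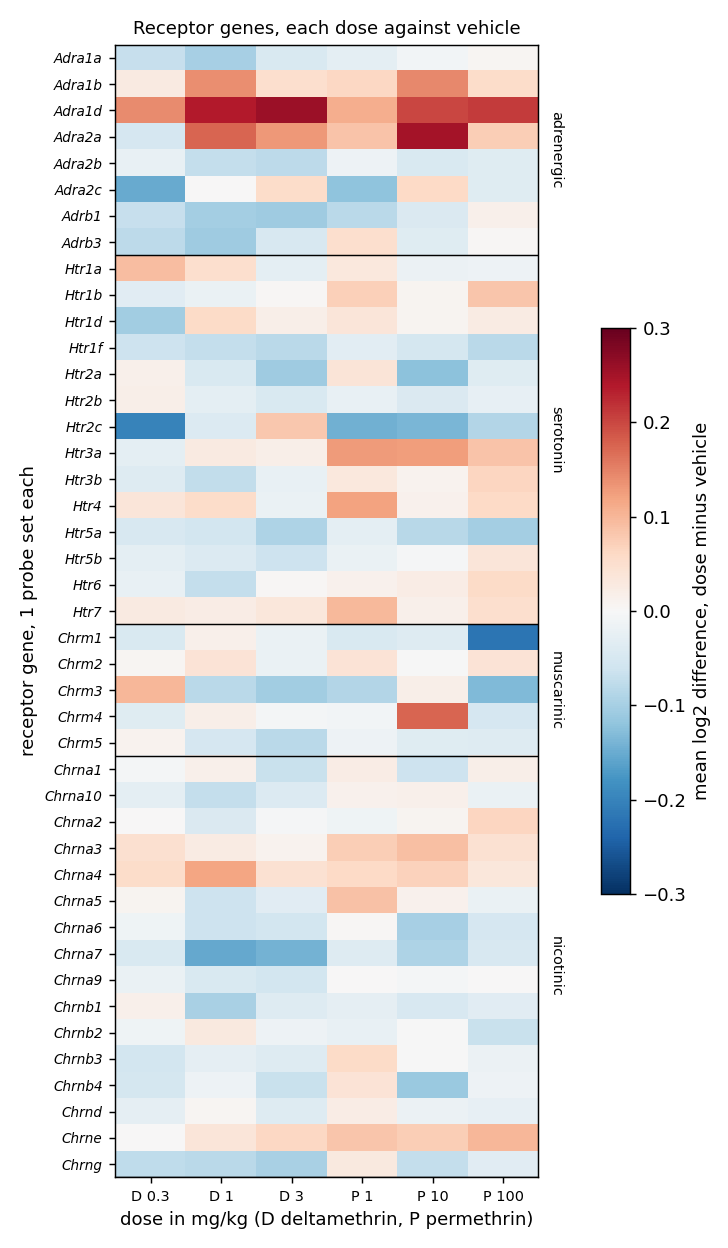
Mean log2 difference from vehicle (colour) for 43 receptor genes (rows, by family, 1 probe set each) at 3 doses of deltamethrin and 3 of permethrin (columns, mg/kg). The values run from -0.22 for Chrm1 at permethrin 100 mg/kg to 0.26 for Adra1d at deltamethrin 3 mg/kg, and no cell passed an adjusted p under 0.05.

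With the array group as a block, 0 of the 56 receptor probe sets passed an adjusted p under 0.05 in any of the 13 comparisons, where the share of all probe sets called was 0.00966% at deltamethrin 3 mg/kg, 0.00644% in the test of any deltamethrin dose, 0.0129% in the deltamethrin trend, 0.00322% in the permethrin trend and 0% in the other 9. At an unadjusted p under 0.05 in that fit, 0, 2 and 2 of the 43 genes passed at the rising deltamethrin doses, against 1.5%, 6.26% and 3.07% of all probe sets. At the rising permethrin doses 0, 2 and 2 genes passed, against 3.18%, 9.65% and 2.54%. Between the compounds 1, 0 and 1 genes passed (deltamethrin 1 against permethrin 1, deltamethrin 1 against permethrin 10, deltamethrin 0.3 against permethrin 1 mg/kg), against 4.5%, 1.66% and 4.01%. In the tests of any dose 1 gene passed for deltamethrin (2.16% of all probe sets) and 0 for permethrin (3.07%), and in the trends 1 gene for each compound (2.54% and 1.11%).

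How large a change these data could have shown differed by gene and by fit. The intervals given here are from the fit without the array group. With the array group as a block the SE was 0.13 against 0.25 for Adra2c and 0.12 against 0.20 for Chrm4. For Htr2b it was 0.035 in both fits. The 95% interval of a dose against vehicle reached 0.07 to either side of the mean difference for Htr2b, 0.149 for the median gene and 0.534 for Htr2c. The values of Htr2b lie far below the median of all probe set means, 7.17, and no detection calls were used. Chrne, Chrna5, Chrnb3 and Chrna10, named below, also lie under that median. A narrow interval at such levels need not mean that a change could have been seen. At deltamethrin 3 mg/kg the intervals of 40 of the 43 genes lay within 0.5 of 0 on the log2 scale, and at permethrin 100 mg/kg those of 39. For the other genes a change of that size lay inside the interval.

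Among the Gq receptors, 3 of 9 were higher and 6 lower in mean at each highest dose, with medians of -0.05 at deltamethrin 3 mg/kg and -0.04 at permethrin 100 mg/kg. With the array group as a block the medians were -0.05 and -0.06. With the replicate number as a block, which mixes the array groups, they were -0.002 and 0.02. Chrm1 encodes the M1 receptor, the main muscarinic receptor of cortical pyramidal cells. The log2 values of Chrm1 were 7.18, 7.68 and 8.35 (lowest, median, highest) in vehicle and 7.34, 7.55 and 7.73 at permethrin 100 mg/kg, where all 8 rats lay below the vehicle mean but inside the vehicle range. The 6 vehicle rats of the 36-array group, at most 7.68, also lay below that mean. The difference was -0.22 ± 0.15 (SE), with an unadjusted p of 0.158 by limma. With the array group as a block the difference was -0.15 ± 0.10 (SE). In the 24-array group it was -0.34 ± 0.11 and in the 36-array group -0.04 ± 0.10 (SE). The medians at the other doses were 7.72, 7.64 and 7.67 for rising deltamethrin and 7.67 and 7.63 for permethrin 1 and 10 mg/kg. The differences there were -0.05, 0.02 and -0.02, and -0.05 and -0.04, each with an SE of 0.15, and with the array group as a block they were 0.02, 0.08 and 0.05, and 0.02 and 0.03, so that 4 of the 5 signs turned.

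Chrm3 encodes the M3 receptor. Its log2 values ran over 9.17, 9.50 and 9.82 (lowest, median, highest) in vehicle, 9.26, 9.50 and 10.11 at deltamethrin 0.3 mg/kg, 8.9959, 9.39 and 9.76 at 1 mg/kg and 9.10, 9.36 and 9.78 at 3 mg/kg. At permethrin 1, 10 and 100 mg/kg they were 9.15, 9.43 and 9.57, then 9.36, 9.49 and 9.70, then 9.04, 9.31 and 9.67. The ranges of all 7 groups overlap. The difference from vehicle was -0.11 ± 0.10 (SE) at deltamethrin 3 mg/kg and -0.13 ± 0.10 at permethrin 100 mg/kg.

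Htr2b encodes a serotonin receptor known mainly from heart, gut and vessels. In vehicle its log2 values were 4.15, 4.28 and 4.43, and 4.18, 4.25 and 4.28 at deltamethrin 3 mg/kg, so that all 8 rats lay below the vehicle mean of 4.29 by a narrow margin. The difference was -0.05 ± 0.03 (SE, unadjusted p = 0.186 by limma). The medians at deltamethrin 0.3 and 1 mg/kg were 4.30 and 4.24 and those at rising permethrin doses 4.26, 4.24 and 4.27.

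Adra1d encodes the alpha1D adrenergic receptor, which is well known from cortex, and it was chosen after its values were seen because it had the largest positive difference. The log2 values of Adra1d were 9.12, 9.24 and 10.18 (lowest, median, highest) in vehicle. At deltamethrin 0.3, 1 and 3 mg/kg they were 9.17, 9.37 and 10.14, then 9.01, 9.58 and 10.32, then 9.32, 9.56 and 10.26. At permethrin 1, 10 and 100 mg/kg they were 9.01, 9.26 and 10.66, then 9.07, 9.40 and 10.23, then 9.29, 9.42 and 10.55. The groups overlap in most of their ranges, and every value above 9.72 is from the 24-array group.

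The Adra1d difference from vehicle was 0.14, 0.24 and 0.26 at the rising deltamethrin doses and 0.11, 0.20 and 0.21 at the rising permethrin doses, each with an SE of 0.20. With the array group as a block these became 0.22, 0.32 and 0.34 and 0.19, 0.28 and 0.29, each with an SE of 0.13. The unadjusted p in that fit was 0.0827, 0.0138 and 0.00939 for rising deltamethrin and 0.136, 0.0297 and 0.0239 for rising permethrin, and the adjusted p was 1.00, 0.766 and 1.00, and 0.881, 0.513 and 0.955, by limma. In the 24-array group the differences were 0.39, 0.52 and 0.38 for deltamethrin and 0.56, 0.58 and 0.45 for permethrin, and there 2 of 6 vehicle rats lay in the set of 14 arrays apart, where Adra1d had a mean of 10.23 against 9.54 in the set of 10. In the 36-array group they were 0.06, 0.14 and 0.25 ± 0.09 (SE) for deltamethrin and -0.09, 0.04 and 0.14 ± 0.06 for permethrin. Without the 14 arrays they were 0.20, 0.16 and 0.23 for deltamethrin and -0.06, 0.008 and 0.14 for permethrin, each with an SE of 0.10 to 0.11.

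**Figure D2:**
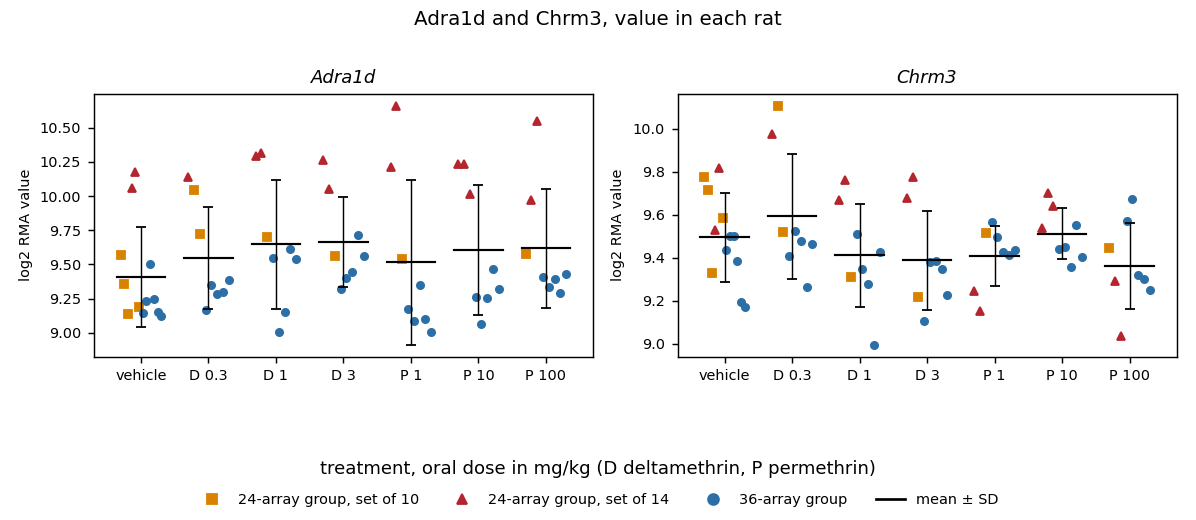
Log2 RMA value of Adra1d and Chrm3 (vertical axes) in each of 60 rats by treatment (horizontal axes, mg/kg), with colour and marker for the array sets and bars for mean ± SD. The triangles, which are the 14 arrays apart, sit between 9.97 and 10.66 for Adra1d, above the highest value of the 36-array group, 9.72, and Chrm3 shows no such step.

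Among the Gi receptors, 4 of 11 were higher and 7 lower in mean at deltamethrin 3 mg/kg (median -0.02), and 5 and 6 at permethrin 100 mg/kg (median -0.01). With the array group as a block 8 were higher and 3 lower at permethrin 100 mg/kg (median 0.03). Htr5a encodes a serotonin receptor found mainly in brain. In vehicle Htr5a had log2 values of 7.75, 8.08 and 8.29, with 7.61, 8.01 and 8.16 at deltamethrin 3 mg/kg and 7.77, 7.97 and 8.21 at permethrin 100 mg/kg. At each of these doses 6 of 8 rats lay below the vehicle mean, and the ranges overlap. The difference was -0.09 ± 0.07 (SE) at deltamethrin 3 mg/kg and -0.10 ± 0.07 at permethrin 100 mg/kg. The medians were 8.04 and 8.03 at deltamethrin 0.3 and 1 mg/kg and 8.02 and 7.94 at permethrin 1 and 10 mg/kg.

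Of the Gs receptors, 2 of 5 were higher in mean at deltamethrin 3 mg/kg, between -0.11 for Adrb1 and 0.03 for Htr7. At permethrin 100 mg/kg 5 of 5 were higher, by 0.003 for Adrb3 to 0.06 for Htr4, with none at an unadjusted p under 0.05. With the array group as a block Adrb3 was at -0.007 there. With the array group as a block the Gs median at deltamethrin 3 mg/kg was -0.04, against -0.02. With the replicate number as a block, which mixes the array groups, it was 0.06.

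Of the 18 channel subunits, 14 were lower and 4 higher in mean at deltamethrin 3 mg/kg (median -0.04), and 10 and 8 at permethrin 100 mg/kg (median -0.02). With the array group as a block the counts stayed at 14 lower and 4 higher, and 10 lower and 8 higher. With the replicate number as a block, which mixes the array groups, they turned to 7 lower and 11 higher, and 2 lower and 16 higher. Chrna7 encodes the alpha7 subunit, which forms a calcium-permeable nicotinic channel of its own. The log2 values of Chrna7 were 8.15, 8.38 and 8.68 (lowest, median, highest) in vehicle. At deltamethrin 0.3, 1 and 3 mg/kg they were 8.15, 8.34 and 8.58, then 8.07, 8.24 and 8.36, then 7.80, 8.29 and 8.53. At deltamethrin 1 mg/kg all 8 rats lay below the vehicle mean of 8.38, and at 3 mg/kg 6 of 8 did, with overlapping ranges.

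The Chrna7 difference was -0.05 ± 0.08, -0.15 ± 0.08 and -0.14 ± 0.08 (SE) at the rising deltamethrin doses, with unadjusted p of 0.584, 0.0698 and 0.0951 by limma. At permethrin 1, 10 and 100 mg/kg the medians were 8.40, 8.29 and 8.29 and the differences -0.04, -0.09 and -0.05. With the array group as a block the value was -0.17 at deltamethrin 1 mg/kg (unadjusted p = 0.0378, adjusted p = 0.766 by limma) and -0.16 at 3 mg/kg. Within the 24-array group the value at 3 mg/kg was -0.04 ± 0.05 (SE) and within the 36-array group -0.22 ± 0.15. Without the 14 arrays it was -0.19 ± 0.09 (unadjusted p = 0.0349, adjusted p = 1.00 by limma).

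Chrne encodes the epsilon subunit of the adult muscle endplate, and all its values lie below the median of all probe set means, 7.17. Chrne had log2 values of 5.66, 5.79 and 6.02 in vehicle and 5.73, 5.93 and 6.17 at permethrin 100 mg/kg, where 6 of 8 rats lay above the vehicle mean of 5.83. The difference was 0.10 ± 0.05 (SE, unadjusted p = 0.0611 by limma), the lowest p of the 43 genes at that dose. The difference was 0.08 and 0.07 at permethrin 1 and 10 mg/kg and 0.001, 0.04 and 0.06 at the rising deltamethrin doses. The medians were 5.92 and 5.90 at permethrin 1 and 10 mg/kg and 5.81, 5.86 and 5.89 at the deltamethrin doses. Within the array groups it was 0.05 ± 0.09 and 0.12 ± 0.08 (SE) at permethrin 100 mg/kg.

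**Figure D3:**
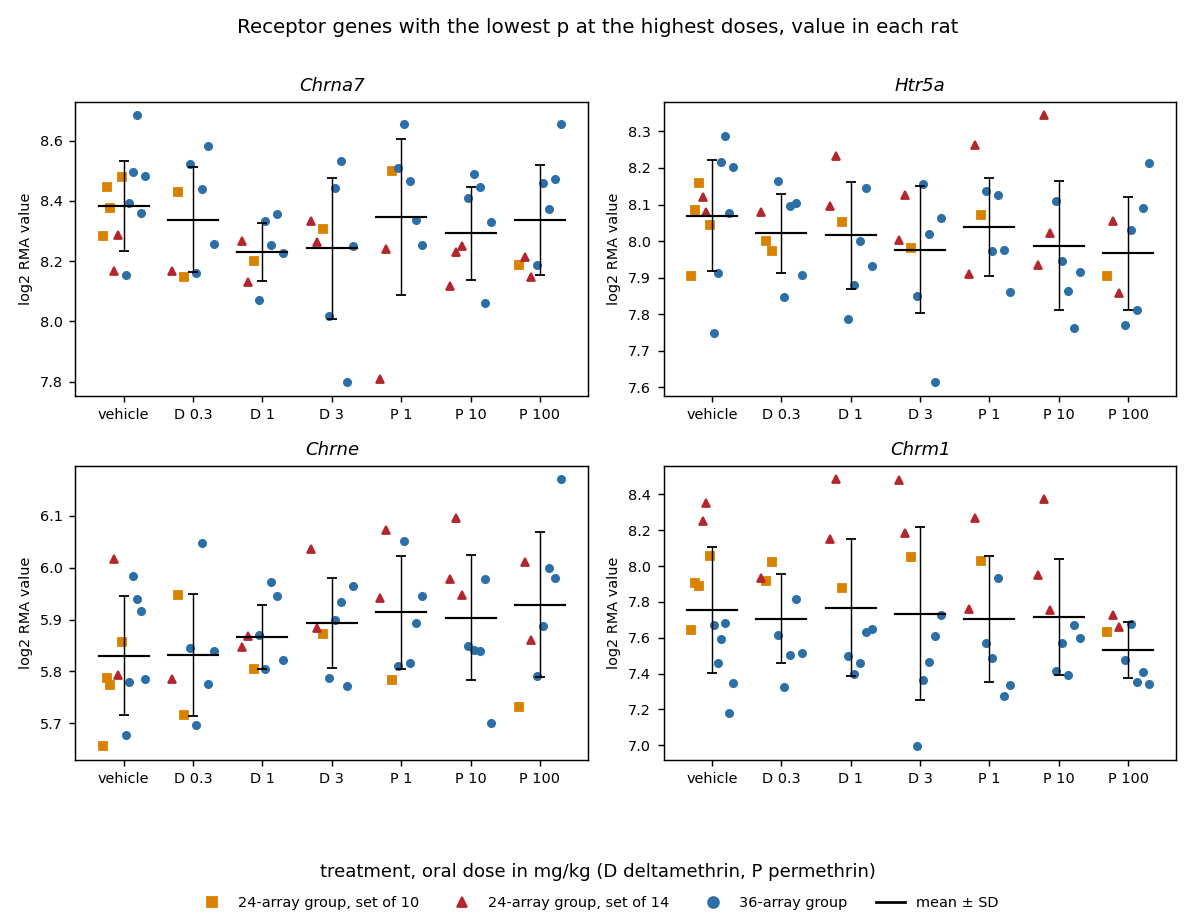
Log2 RMA value (vertical axes) of Chrna7, Htr5a, Chrne and Chrm1 in each of 60 rats by treatment (horizontal axes, mg/kg), with colour and marker for the array sets and bars for mean ± SD. The ranges of all groups overlap in each panel, and at permethrin 100 mg/kg the 8 Chrm1 values lie between 7.34 and 7.73, inside the vehicle range of 7.18 to 8.35.

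A linear trend over dose, fitted to the 36 rats of a compound and vehicle, asked for a graded change. In both trends 0 of the 43 genes reached an adjusted p under 0.05, and neither did any other probe set (0%), and at an unadjusted p under 0.05 there were 0 of the 43, against 1.36% and 0.696% of all probe sets. For deltamethrin the lowest unadjusted p were 0.0759 for Chrna7 (-0.13 ± 0.07 SE over 0 to 3 mg/kg in the fitted line) and 0.0931 for Htr2b (-0.05 ± 0.03). For permethrin they were 0.106 for Chrm1 (-0.20 ± 0.12 over 0 to 100 mg/kg) and 0.133 for Chrm3 (-0.11 ± 0.07). The tests of any dose gave their lowest unadjusted p for Chrna7 (0.201) and Chrm3 (0.205) under deltamethrin and for Chrne (0.203) and Chrna6 (0.294) under permethrin, with 0% of all probe sets past an adjusted p under 0.05 and 0.725% and 1.23% past an unadjusted one. Chrna6, a subunit known from dopamine neurons, had medians of 6.92 in vehicle, 6.87, 6.84 and 6.87 at the rising deltamethrin doses and 6.92, 6.79 and 6.81 at the rising permethrin doses.

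The compounds were compared at the dose they share, 1 mg/kg, and at 2 further pairs of doses. The study ranked doses by their effect on behaviour in earlier work. By that ranking 1 mg/kg is a higher level for deltamethrin than for permethrin, so this pair is equal in mg/kg only. At 1 mg/kg 12 of the 43 genes were higher and 31 lower in mean with deltamethrin than with permethrin, with a median of -0.04, against -0.004 over all probe sets. No gene passed an adjusted p under 0.05, where 0% of all probe sets did. At an unadjusted p under 0.05 1 of 43 genes passed, Chrna5, against 2.73% of all probe sets. Chrna5 encodes an accessory nicotinic subunit, and its log2 values were 5.21, 5.32 and 5.45 (lowest, median, highest) with deltamethrin and 5.19, 5.44 and 5.99 with permethrin. The difference was -0.15 (95% interval -0.28 to -0.02, unadjusted p = 0.0242 by limma). Within the array groups it was 0.008 ± 0.08 (24 arrays) and -0.25 ± 0.11 (SE, 36 arrays), and the permethrin rat at 5.99 stood apart from the next at 5.54. The Chrna5 medians were 5.39 in vehicle, 5.40 and 5.35 at deltamethrin 0.3 and 3 mg/kg and 5.42 and 5.34 at permethrin 10 and 100 mg/kg.

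Adrb3, a beta receptor best known from fat, had log2 values of 6.54, 6.80 and 7.10 with deltamethrin 1 mg/kg and 6.65, 6.97 and 7.17 with permethrin 1 mg/kg, a difference of -0.16 (95% interval -0.33 to 0.01). Its medians were 6.86 in vehicle, 6.80 and 6.88 at deltamethrin 0.3 and 3 mg/kg and 6.85 and 6.94 at permethrin 10 and 100 mg/kg. The intervals of the compound difference at 1 mg/kg lay within 0.5 of 0 for 40 of 43 genes, and the widest, of Htr2c, ran from -0.48 to 0.69. At equal mg/kg, though not at equal effect on behaviour, a difference between the compounds larger than 0.5 was therefore outside the interval for most but not all of these receptors.

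**Figure D4:**
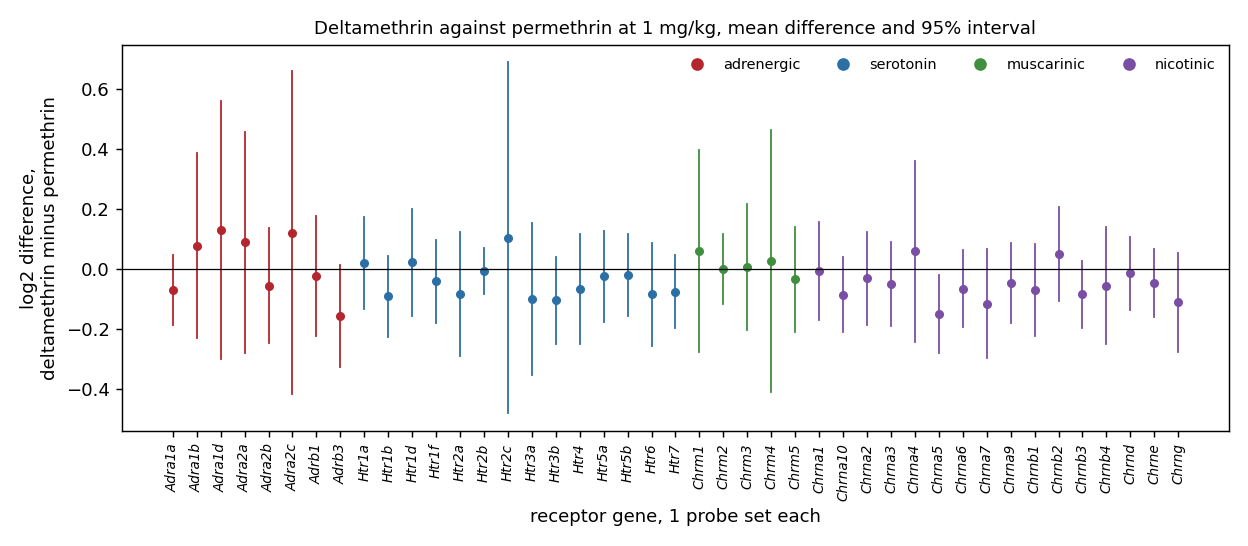
Difference in mean log2 value between deltamethrin and permethrin at 1 mg/kg (vertical axis) for 43 receptor genes (horizontal axis), with 95% intervals from limma and colour by family. Of the 43 intervals that of Chrna5 (-0.28 to -0.02) leaves out 0, and the difference did not pass an adjusted p under 0.05.

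The other pairs differ in mg/kg and are given side by side. The study placed the doses of each pair at the same level of effect on behaviour. In each pair the intervals of 40 of the 43 genes lay within 0.5 of 0. Between deltamethrin 1 mg/kg and permethrin 10 mg/kg the lowest unadjusted p were those of Adra1a (-0.09 ± 0.06 SE, p = 0.130), an alpha1 receptor gene, and Chrna10 (-0.09 ± 0.06, p = 0.165), a subunit known from the inner ear. The Adra1a medians were 6.00 in vehicle, 5.94, 5.93 and 5.97 at the rising deltamethrin doses and 5.98, 5.99 and 6.03 at the rising permethrin doses, and those of Chrna10 were 4.83, then 4.76, 4.67 and 4.74, then 4.80, 4.79 and 4.80. Between deltamethrin 0.3 mg/kg and permethrin 1 mg/kg they were those of Chrnb3 (-0.11 ± 0.06, p = 0.0494) and Chrm3 (0.19 ± 0.10, p = 0.0800). The Chrnb3 medians were 5.14 in vehicle, 5.08, 5.11 and 5.15 at the rising deltamethrin doses and 5.22, 5.17 and 5.16 at the rising permethrin doses. No gene passed an adjusted p under 0.05 in either comparison, where 0% of all probe sets did, and 1.02% and 2.41% passed an unadjusted p under 0.05.

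Htr2c, Adra2c and Chrm4 had the largest SD among the 12 vehicle rats, 0.56, 0.54 and 0.39, against a median of 0.18 over the 43 genes and 0.18 over all probe sets. Htr2c encodes a serotonin receptor of deep cortical layers, striatum and choroid plexus. Its log2 values were 8.80, 9.66 and 10.55 (lowest, median, highest) in vehicle, 7.72, 9.69 and 10.14 at deltamethrin 0.3 mg/kg, 8.78, 9.70 and 10.33 at 1 mg/kg and 9.16, 9.73 and 10.64 at 3 mg/kg. At rising permethrin doses they were 8.12, 9.88 and 10.13, then 8.65, 9.68 and 10.15, then 8.78, 9.68 and 10.37. Its mean was 8.97 in the 14 arrays apart, 9.56 in the other 10 of that group and 9.88 in the 36, so that the low values are found mainly in the 14.

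Adra2c encodes the alpha2C receptor, known from striatum as well as cortex. Its log2 values were 8.43, 8.82 and 10.16 in vehicle, 8.45, 8.73 and 9.56 at deltamethrin 0.3 mg/kg, 8.37, 8.77 and 9.84 at 1 mg/kg and 8.24, 8.97 and 9.93 at 3 mg/kg. At rising permethrin doses they were 8.34, 8.70 and 9.76, then 8.52, 8.74 and 9.91, then 8.35, 8.68 and 10.06. Its mean was 9.76 in the 14 arrays apart, 9.11 in the 10 and 8.60 in the 36. The lowest value of the 14, 9.39, lies above the highest of the 36, 9.08.

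Chrm4 encodes the M4 receptor, the main muscarinic receptor of striatal neurons that carry the D1 dopamine receptor. Its log2 values were 6.58, 6.93 and 7.75 in vehicle, 6.83, 6.98 and 7.38 at deltamethrin 0.3 mg/kg, 6.53, 6.96 and 7.63 at 1 mg/kg and 6.40, 7.04 and 7.72 at 3 mg/kg. At rising permethrin doses they were 6.57, 6.85 and 7.96, then 6.77, 6.93 and 8.02, then 6.59, 6.78 and 8.15. Its mean was 7.76 in the 14 arrays apart, 7.15 in the 10 and 6.82 in the 36, and again the lowest of the 14, 7.38, lies above the highest of the 36, 7.10. The high values of Adra2c and Chrm4 occur in every treatment group.

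In the fit without a block the dose differences of each of these 3 genes lay on both sides of 0. Those of Adra2c lay between -0.15 and 0.06 with an SE of 0.25, and with the array group as a block between -0.04 and 0.17 with an SE of 0.13. Those of Chrm4 lay between -0.05 and 0.17 with an SE of 0.20, and with the block between 0.04 and 0.26 with an SE of 0.12, where all 6 were above 0. Those of Htr2c lay between -0.20 and 0.08 with an SE of 0.27, and with the block between -0.28 and -0.004 with an SE of 0.22, where all 6 were below 0.

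**Figure D5:**
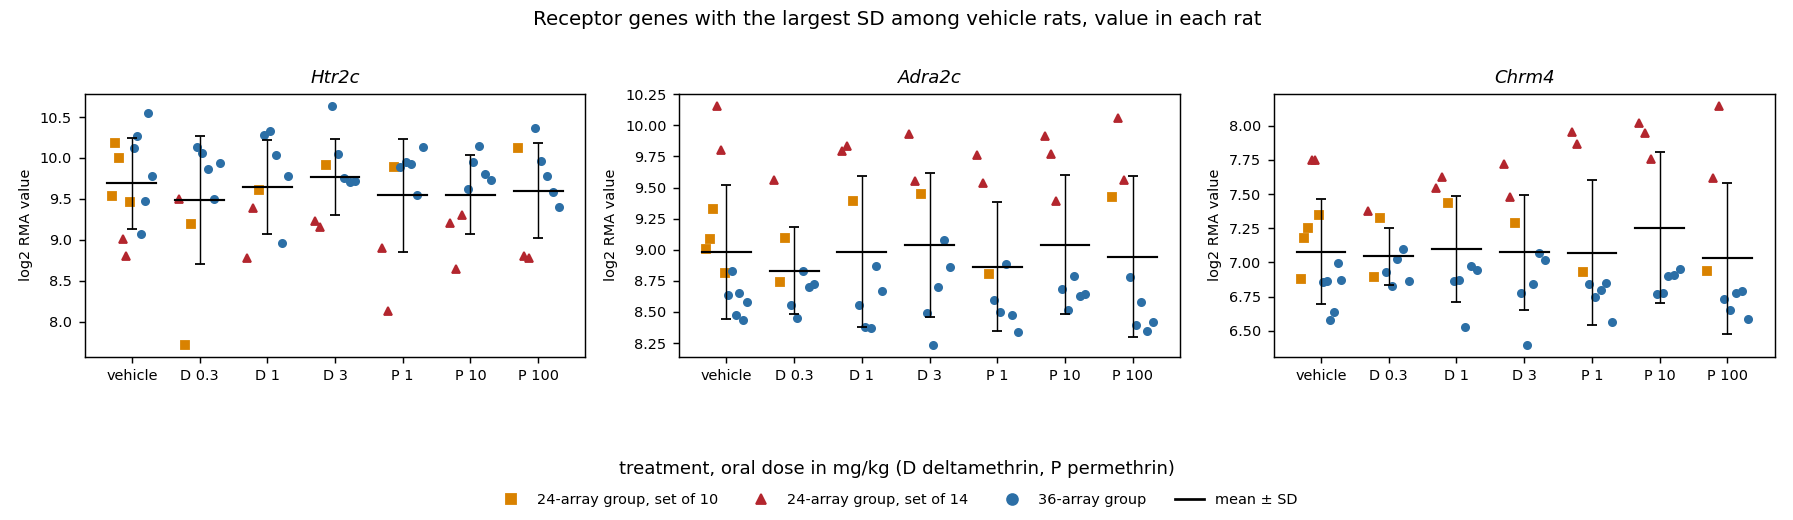
Log2 RMA value (vertical axes) of Htr2c, Adra2c and Chrm4 in each of 60 rats by treatment (horizontal axes, mg/kg), with colour and marker for the array sets and bars for mean ± SD. The 14 arrays apart (triangles) have Adra2c and Chrm4 values from 9.39 and 7.38 upward, above all of the 36-array group (circles) but overlapping the other 10 arrays, which reach 9.45 and 7.44, and the Htr2c means are 8.97 in the 14 and 9.88 in the 36.

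Marker genes of cell types were set beside the receptors, since a frontal cortex sample can hold neighbouring tissue. Correlations were taken across rats on residuals from treatment means within each array group, with the set of 14 or 10 also removed in the 24-array group, and tested by permutation over 946 pairs of gene and list. Of these, 173 passed an adjusted p under 0.05, 33 of them positive. In the 36 arrays the pairs that passed had r of 0.43 or more to either side of 0, which 3.17% of receptor pairs did on the positive and 24.5% on the negative side, against 7.96% and 12.99% of pairs of any probe set with a list. In the 24 arrays they had 0.48 or more, which 6.13% and 7.4% of receptor pairs did, against 8.86% and 8.01%. Chrm4 correlated with the mean of 11 striatal markers in the 36 arrays (r = 0.63, rho = 0.58, permutation p = 3e-05 and 0.00026, adjusted p = 0.000835 and 0.00397, r without the 2 farthest arrays 0.56), and in the 24 arrays r was 0.001. There it correlated instead with the microglia list (r = 0.80, rho = 0.78, permutation p = 1e-05 and 2e-05, adjusted p = 0.00043 and 0.00118, 0.77 without the 2), for which r was 0.31 in the 36 (adjusted p = 0.214). The permutation p of 1e-05 is the smallest these permutations can give. Adra2c correlated with the striatal list in the 24 arrays (r = 0.65, rho = 0.71, permutation p = 0.00053 and 0.00013, adjusted p = 0.00635 and 0.00256, 0.74 without the 2), and in the 36 r was 0.42 (permutation p = 0.0111, adjusted p = 0.0563). The mean level of the striatal list was 9.80 ± 0.24 (SD) in vehicle and lay between 9.64 and 9.96 in the dose groups, and at deltamethrin 3 mg/kg 11 of 11 striatal markers were higher in mean than in vehicle, by a median of 0.15, with 0 past an adjusted and 2 past an unadjusted p under 0.05 (1.36% of all probe sets). At deltamethrin 0.3 mg/kg 10 of the 11 were lower, by a median of -0.14, with 1 past an unadjusted p under 0.05 (0.751% of all probe sets). At deltamethrin 1 mg/kg 10 were higher (median 0.11), and at rising permethrin doses 5, 8 and 5 were higher (medians -0.0007, 0.06 and -0.02), with none past either threshold.

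Htr2c correlated with the excitatory neuron list in the 36 arrays (r = 0.65, rho = 0.65, permutation p = 3e-05 and 4e-05, adjusted p = 0.000835 and 0.00172, 0.60 without the 2). In the 24 arrays it correlated with the striatal list (r = 0.74, rho = 0.67, permutation p = 0.00033 and 0.00068, adjusted p = 0.00434 and 0.00804), and r was 0.50 without the 2 farthest arrays. For choroid plexus r was 0.63 in the 24 arrays and 0.41 without the 2, and 0.39 and 0.11 in the 36. The astrocyte list was the only list with which Htr2c passed in both array groups. There r was 0.47 in the 36 arrays and 0.66 in the 24 (permutation test, adjusted p = 0.0328 and 0.00801). Of all probe sets 17.3% had r above 0.4 with the astrocyte list in the 36 arrays. Over the 60 rats the excitatory neuron list (10 of 12 markers measured) had mean log2 levels between 8.47 and 9.12, and the choroid plexus list (8 of 10 measured) between 6.84 and 9.07, the highest being a vehicle rat. The part of neighbouring tissue in these levels was not tested.

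In the 36 arrays many receptor genes ran against the neuron and astrocyte lists. The residual correlation with the excitatory neuron list was below -0.4 in 27 of 43 genes, against 36.3% of all probe sets, and with the astrocyte list in 28 of 43, against 31.3%. Of the 29 receptor genes with a mean below the median of all probe set means, 21 lay below -0.4 with the excitatory list, where 51.8% of all such dim probe sets did. The genes furthest in this direction were Htr5b (r = -0.80) and Adra1a (r = -0.74) with the excitatory list and Chrna6 (r = -0.75) with the parvalbumin and somatostatin interneuron list. The array median moved with them: its residual correlation was above 0.5 for 28 of the 43 genes, against 32.6% of all probe sets, from 0.91 for Adrb3 and 0.895 for Htr6 down to -0.56 for Htr2c. Htr2c and Chrm3 were the 2 genes above 0.4 with the excitatory list, and Chrm3 had r = 0.56 in both array groups (permutation p = 0.00032 and 0.00626, adjusted p = 0.00426 and 0.0395, rho 0.53 and 0.57), with 0.39 in the 36 and 0.57 in the 24 without the 2 farthest arrays.

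Htr3a, a serotonin-gated channel known from a class of interneurons, correlated with the microglia list in both array groups. In the 36 arrays r was 0.45 and rho 0.45 (permutation p = 0.00586, adjusted p = 0.0372, 0.42 without the 2 farthest), and in the 24 r was 0.86 and rho 0.82 (permutation p = 1e-05, adjusted p = 0.00043, 0.81 without the 2). Of all probe sets 14.8% had r above 0.4 with that list in the 36 arrays, and of the receptor genes 10 of 43 did. Microglia was not the only list with which Htr3a passed in both array groups. With the endothelial and mural cell list r was 0.43 in the 36 arrays and 0.58 in the 24. With the excitatory neuron list it was -0.48 and -0.57. In the 36 arrays 5.27% of all probe sets had r above 0.4 with the former and 36.3% below -0.4 with the latter. Htr3b, whose product pairs with that of Htr3a, had r = 0.85 with the microglia list in the 24 arrays and 0.15 in the 36. In the 24 arrays 10 of the 43 genes had r of 0.48 or more with this list, against 24.4% of all probe sets, and 1 had -0.48 or less (Chrm3, r = -0.77), against 16.9%. The part of microglia or of other cells in these values was not tested.

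The probe sets most like the variable genes were found by correlation of residuals from treatment and array group means over 60 arrays, as a description. For Htr2c they were those of Klhl13 (r = 0.88), Glra2 (0.84) and Lpl (0.82), with r of 0.86, 0.86 and 0.87 in the 36 arrays alone. For Adra2c they were C2cd2l, Dhx30 and Fgfr1 (each 0.87), with 0.77, 0.79 and 0.70 in the 36 arrays. For Chrm4 they were Gipc1 (0.90), Nans (0.89) and Thop1 (0.88), with 0.66, 0.57 and 0.54 in the 36 arrays and 0.88, 0.87 and 0.88 in the 24. The residuals over 60 arrays still hold the difference between the sets of 14 and 10.

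Several probe sets were present for 9 genes, 22 in all, and these did not always vary together. For Chrm3 the pair correlated at 0.85 in the 36 arrays and 0.82 in the 24, and at deltamethrin 0.3 mg/kg the differences were 0.10 ± 0.10 and 0.20 ± 0.10 (SE). For Htr2a, the serotonin receptor of cortical pyramidal cells, 4 probe sets were present, with vehicle SD of 0.21, 0.52, 0.07 and 0.13, and at permethrin 1 mg/kg they gave 0.04, -0.06, 0.09 and 0.13. The last pair had an unadjusted p of 0.0417 and 0.0276 by limma and an adjusted p of 1.00. For Htr2c the probe set with the second mean had a vehicle SD of 0.29 against 0.56 and correlated with the first at 0.15 in the 36 arrays and 0.61 in the 24. The Adra2a pair correlated at -0.002 and 0.41.

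Genes that make, move and break down the transmitters, and genes downstream of the receptors, were examined in lists. Of 17 measured genes of monoamine and acetylcholine synthesis, transport and breakdown, 0 passed an adjusted p under 0.05 at either highest dose, with 12 lower and 5 higher at deltamethrin 3 mg/kg and 7 lower and 10 higher at permethrin 100 mg/kg. Ddc, aromatic amino acid decarboxylase, had log2 values of 7.38, 7.60 and 7.81 in vehicle and 7.04, 7.32 and 7.44 at deltamethrin 3 mg/kg, so that the groups barely overlap. Its difference was -0.32 ± 0.08 (SE, unadjusted p = 0.000130, adjusted p = 1.00 by limma) there and -0.003 at permethrin 100 mg/kg. Slc18a2, the vesicular monoamine transporter, differed by -0.11 ± 0.06 and 0.01 ± 0.06.

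Of 15 G protein genes, 10 and 8 were higher at deltamethrin 3 mg/kg and permethrin 100 mg/kg. There 0 passed the adjusted threshold, as did 0% of all probe sets. Gna14, a Gq family alpha subunit, had log2 values of 5.20, 5.41 and 5.73 in vehicle, 5.34, 5.57 and 5.89 at deltamethrin 3 mg/kg and 5.43, 5.68 and 6.04 at permethrin 100 mg/kg. The difference was 0.20 ± 0.07 and 0.29 ± 0.07 (SE), with an adjusted p of 1.00 and 0.803 by limma. The unadjusted p by limma was 0.00634 and 0.000177, where 1.36% and 1.24% of all probe sets passed an unadjusted p under 0.05. Gna11, another Gq family subunit, differed by 0.10 ± 0.10 and 0.23 ± 0.10.

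Of 14 receptor kinases, arrestins and Rgs proteins, which end receptor signals, 9 and 10 were higher and 0 passed (0% of all probe sets). The 2 with the lowest p were Grk6 (0.14 ± 0.13 and 0.24 ± 0.13 SE) and Rgs16 (-0.03 ± 0.09 and 0.15 ± 0.09). Of 21 effectors 10 and 7 were higher and 0 passed, led by Adcy3, an adenylyl cyclase (0.13 ± 0.09 and 0.17 ± 0.09), and Kcnq3, a potassium channel subunit that muscarinic receptors close (-0.12 ± 0.12 and -0.19 ± 0.12). Of 10 receptor partners 5 and 7 were higher and 0 passed, led by S100a10, which binds serotonin 1B receptors (0.14 ± 0.08 and 0.09 ± 0.08), and Rapsn, the clustering protein of the muscle endplate (-0.01 ± 0.07 and 0.10 ± 0.07).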

How the data were processed

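RNA of the frontal cortex of 60 rats was hybridized to 1 array each. The authors deposited log2 values made by RMA, which corrects background, normalizes by quantiles and summarizes probes into probe sets; these were used as deposited, with no scanner files. The number of arrays limits the precision, since an array has no depth of reads. Symbols came from the platform annotation (20826 probe sets with 1 symbol, 436 with several, 9780 with none). Members, gene lists and tests were chosen with earlier results of these data known.

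Each comparison used limma 3.58.1 (R 4.3.3), with group means in 1 fit of all 60 arrays (trends: 36 arrays), moderated variances and p-values adjusted by Benjamini-Hochberg across all 31042 probe sets; a call is an adjusted p under 0.05. The study's methods used SAM, isotonic regression and a one-way test, which were not run here. Array groups came from a Gaussian mixture on 2 principal components (scikit-learn 1.9.0, numpy 2.4.6), lowest BIC at 3 sets. The 2 smaller sets were joined as the 24-array group. Correlations used 100000 two-sided permutations, within sets in the 24-array group. The limma fits and the correlations were tested on simulated data. Genes named with values had the 3 lowest p at each highest dose, the 2 lowest in each trend, compound or any-dose test, or the 3 largest vehicle SDs, and of each pathway list the 2 lowest p over the highest doses. Alternatives were other scalings, filters, priors, blocks and array sets. P-values measure the spread between rats, which in fits without a block includes the difference between the array groups.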

Additional observations from a re-analysis of the deposited data

Results flagged for a closer look

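In groups of 8 rats, values of the 15 receptor genes named by the rules were searched for a single rat far from the other 7, by Dixon's ratio of its gap to the group's range. Of 90 groups of values 3 held such a rat, and chance gives about 1 in 20. Htr2c at deltamethrin 0.3 mg/kg had 1 rat at 7.72 (replicate 2), with the next at 9.19 and a group median of 9.69. In that rat the striatal list stood at 8.70, below the 9.38 to 9.97 of the other 7 rats, the oligodendrocyte list at 11.2 (others 11.5 to 11.9) and the excitatory neuron list at 9.06 (others 8.73 to 8.99). Most other lists also lay outside the range of the other rats. The choroid plexus, astrocyte, microglia, endothelial and mural cell and meninges lists were below it, the last at 8.06 (others 8.37 to 8.88). The parvalbumin and somatostatin interneuron list was above it, at 10.26 (others 9.89 to 10.19). The part of the tissue taken was not tested. Chrna5 at permethrin 1 mg/kg had 1 rat at 5.99 (replicate 5), with the next at 5.54. Adra1a at permethrin 100 mg/kg had 1 rat at 5.69 (replicate 1), with the next at 5.96 and a median of 6.03.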

How the results depend on the processing

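Over 11 alternatives (array medians centred, quantile normalization repeated, linear values, bright probe sets only, a trended and robust prior, array group block, replicate block, the compared groups only, dose rank, the 3 array sets as a block, and without the 14 arrays apart), which gave 130 fits of the 13 comparisons, 0 member probe sets passed an adjusted p under 0.05. The last 2 were chosen after seeing the data. At an unadjusted p under 0.05 between 0 and 7 of 56 member probe sets passed, against 0.58% to 9.65% of all probe sets. The lowest adjusted p of a member was 0.420, by limma. For the array group block the shares of all probe sets past an adjusted p are given above. With the replicate block, 0 passed and the unadjusted count was 7 at permethrin 1 and 100 mg/kg, where 7.93% and 6.24% of all probe sets passed. The labels do not say what a number marks, 112 of 168 same-numbered pairs correlated above 0.1 in their deviations (range -0.82 to 0.90), and 17 of 60 arrays correlated best with their own number. Not every pair passed 0.1, so the numbers were not taken as pairs, although all 8 pairs of deltamethrin 1 with permethrin 1 mg/kg did (0.375 to 0.852), and low numbers coincide with the 24-array group. The median over the genes ranged from -0.05 to 0.05 over the doses. Among genes in the comparison that named them, and Adra1d at each dose, 1 turned sign, Adra1d at permethrin 1 mg/kg, -0.0554 without the 14 arrays apart. Of all 90 dose differences of the 15 genes, none past the test, 13 turned sign with the array group block, 10 with the 3 array sets, 19 without the 14, 34 with the replicate block, and 0 to 6 with the others. The marker pairs past the threshold numbered 156 with list medians, 188 with centred arrays and 166 with Spearman, against 173.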
